A study of Homo sapiens with 6 samples.

Results

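The 48 genes described here encode the subunits of the proteasome, its regulators and the chaperones that assemble it. They were found among 25528 gene symbols by the symbols PSMA to PSMG followed by a number, and 0 of the matching symbols were pseudogenes. By role they are 7 genes of the 20S alpha ring, 7 of the 20S beta ring, 3 of the immunoproteasome, 2 of tissue-specific core particles, 6 ATPases and 11 other subunits of the 19S cap, 4 chaperones of the 20S core, 3 chaperones of the 19S cap, and 5 activators and inhibitors. The cells were DU145, an established human prostate cancer line, carrying a doxycycline (DOX)-inducible tet-XISTshRNA vector that targets the long non-coding RNA XIST. Per the study's methods, 3 samples received vehicle (0.1% DMSO) and 3 received 500 ng/ml DOX for a week. Transduced cells had been selected with puromycin or geneticin, and whether they descend from 1 clone was not given in the sources used here. All 6 samples carried the vector, and no DOX-treated cells with a control shRNA were analysed here, so silencing and DOX itself cannot be told apart. Labels and methods describe RNA of cells grown in triplicate, and the methods state for the study's experiments in general that replicates were independent. Neither ties that statement to these libraries, so p-values measure the spread between these samples.

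The targeted RNA, XIST, had a listed TPM of 0 in every one of the 6 samples, and silencing therefore cannot be read from this table. EIF4A1, an abundant translation factor gene, was listed at 0 throughout as well, so a 0 here can be a failed estimate. Of the epithelial markers, KRT8, KRT18, KRT19, EPCAM and CDH1 were present in every sample, with a summed TPM of 214 to 358 with vehicle and 257 to 286 with DOX, while KLK3, which DU145 is known to lack, was listed at 0. Of the leukocyte markers, CD3E was listed at 0, PTPRC reached at most 0.0167 TPM and CD68 carried nearly all of the summed 15.3 to 19.6 with vehicle and 11.4 to 12.7 with DOX. Fibroblast markers summed to at most 0.616 TPM, with DCN and LUM listed at 0, and endothelial markers to at most 0.0597.

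The proteasome degrades proteins that have been tagged with ubiquitin. Its 20S core is a barrel of alpha rings, which form the gate, and beta rings, whose subunits PSMB5, PSMB6 and PSMB7 hold the active sites. The 19S cap binds the ubiquitin chain, removes it, and unfolds and threads the substrate through a ring of ATPases (PSMC1 to PSMC6). Interferon signalling exchanges the active subunits for PSMB8, PSMB9 and PSMB10, which gives the immunoproteasome. Since the particle is built from fixed numbers of each subunit, its genes are known for being transcribed together, and the transcription factor NFE2L1 raises them when proteasome activity is low by binding the antioxidant response element (ARE) in their promoters.

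Promoter sequences of the members are shown because shared elements are the known route to joint control. RefSeq promoters (GRCh38.p14, 250 bases before to 50 bases after the start site) were matched for 42 members and not for PSMA7, PSMB1, PSMB6, PSMB7, PSMD4 and PSMG3. The ARE core TGACNNNGC, searched on both strands, was found in 13 of these 42 promoters (31%), against 15.6% of the promoters of the genes tested below and 13.6% of all 27305 promoters. This core was made stricter after a first count had been seen, and the shares were not tested against each other. It was in 0 of 6 alpha ring promoters, 1 of 4 beta ring, 1 of 3 immunoproteasome, 0 of 2 tissue-specific core, 1 of 6 ATPase, 3 of 10 other 19S, 2 of 3 20S chaperone, 2 of 3 19S chaperone and 3 of 5 activator and inhibitor promoters. Shown are windows of 60 bases that end before the start site, from 4 subgroups, with the core in capitals; it begins 104 bases before the start in PSMB3, 165 in PSMD12, 183 in PSMG1 and 86 in PSME1.
PSMB3 (chr17:38752611-38752670, + strand): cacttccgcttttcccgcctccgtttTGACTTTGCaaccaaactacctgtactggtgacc
PSMD12 (chr17:67366709-67366768, - strand): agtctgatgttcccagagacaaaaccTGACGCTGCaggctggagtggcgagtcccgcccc
PSMG1 (chr21:39183601-39183660, - strand): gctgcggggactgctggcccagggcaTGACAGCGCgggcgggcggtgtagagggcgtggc
PSME1 (chr14:24136082-24136141, + strand): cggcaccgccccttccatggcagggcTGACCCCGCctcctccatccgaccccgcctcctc

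The ETS box CCGGAAG, which ETS-family factors bind, was in 13 of the 42 promoters (31%), against 20.8% of the tested genes' promoters and 10.7% of all. Both strands were searched, and the letters overlap no other motif searched here. The box was found in 3 of 6 ATPase and 6 of 10 other 19S promoters and in 0 of 6 alpha ring and 0 of 4 beta ring promoters, which are small numbers with no test. Shown in capitals is the box, or its reverse complement CTTCCGG, in a 19S ATPase, in the 19S subunit with the largest difference between the groups and in a 20S chaperone, beginning 107, 17 and 44 bases before the start.
PSMC6 (chr14:52707066-52707125, + strand): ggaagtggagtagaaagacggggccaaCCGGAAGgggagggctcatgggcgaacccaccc
PSMD8 (chr19:38374511-38374570, + strand): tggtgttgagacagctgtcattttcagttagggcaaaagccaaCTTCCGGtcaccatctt
PSMG4 (chr6:3258876-3258935, + strand): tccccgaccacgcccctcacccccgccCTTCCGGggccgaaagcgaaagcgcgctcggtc
The NF-Y box CCAAT was in 45.2% of the members' promoters and 36.9% of the tested genes' promoters, the NRF1 box in 2.38% and 2.46%, and the YY1 box in 2.38% and 2.28%. A match of letters is a description of the sequence and not a shown binding site.

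Levels are given as scaled TPM. TPM (transcripts per 1000000) corrects reads for length and has the same total in all samples, and a few small RNAs that are not members held between 67.5% and 82.6% of it. The values were therefore scaled between samples by the median of ratios over genes. On the deposited TPM the median of all genes tested lay at -0.35 on the log2 scale with DOX, and on the scaled TPM at 0.02. Recovered reads on genes ranged from 5452673 in vehicle replicate 3 to 64573773 in DOX replicate 1, so vehicle replicate 3 limits the precision of members with low counts.

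In vehicle-treated cells the subunits of the 20S core were among the more abundant members, and their mRNA levels were far from equal. The median of the 14 alpha and beta ring genes was 71.9 scaled TPM, that of the 17 genes of the 19S cap 33.6, and that of all genes tested 7.05. Within the core the highest level was that of PSMB4 (144 ± 27.8, SD, n = 3) and the lowest that of PSMA5 (10.0 ± 1.74), 14.4-fold apart, although each ring holds 1 of each subunit. PSMB4, PSMA6 (142 ± 2.70) and PSMA4 (115 ± 12.9) led the order, and PSMB4 and PSMA6 differed by less than the spread of PSMB4. In the cap PSMD2, a large scaffold subunit, was highest at 87.1 ± 5.58 and PSMD6 lowest at 12.5 ± 1.17, 6.95-fold apart. The chaperone gene PSMG2 stood at 99.5 ± 16.8, while PSMG1, whose protein is its partner in a dimer, stood at 22.1 ± 2.96.

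None of the members passed the test for a difference between DOX and vehicle. In the limma fit over 11595 genes, 0 of the 44 members tested were called at an adjusted p below 0.05, and 0 genes of the whole table were called (percent called 0 higher, 0 lower). At an unadjusted p below 0.05, 10 members were higher with DOX and 0 lower, against 941 genes higher (8.12%) and 899 lower (7.75%) among all genes tested. On the scaled TPM 42 of the 44 members had a positive log2 fold change, against 52.9% of all genes, and on the deposited TPM only 5 of 44 did, against 6.90%. The members' median log2 fold change was 0.20 on the scaled TPM, where all genes had 0.02, and -0.23 on the deposited TPM, where all genes had -0.35. On both scales the members' median thus lay above that of all genes, and its sign depended on the scaling. The 3 samples of each group did not overlap for 14 members on the scaled TPM, all with DOX above vehicle, against 10.9% of all genes with DOX above and 9.15% with DOX below. On the deposited TPM 0 of the 44 had groups that did not overlap, against 0.224% and 30.7% of all genes. The fit on the deposited TPM called 0 members, against 0.0343% of all genes higher and 2.98% lower, and 2 members (PSMD12 and PSME4) were lower at an unadjusted p below 0.05, against 29.2% of all genes.

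**Figure D1:**
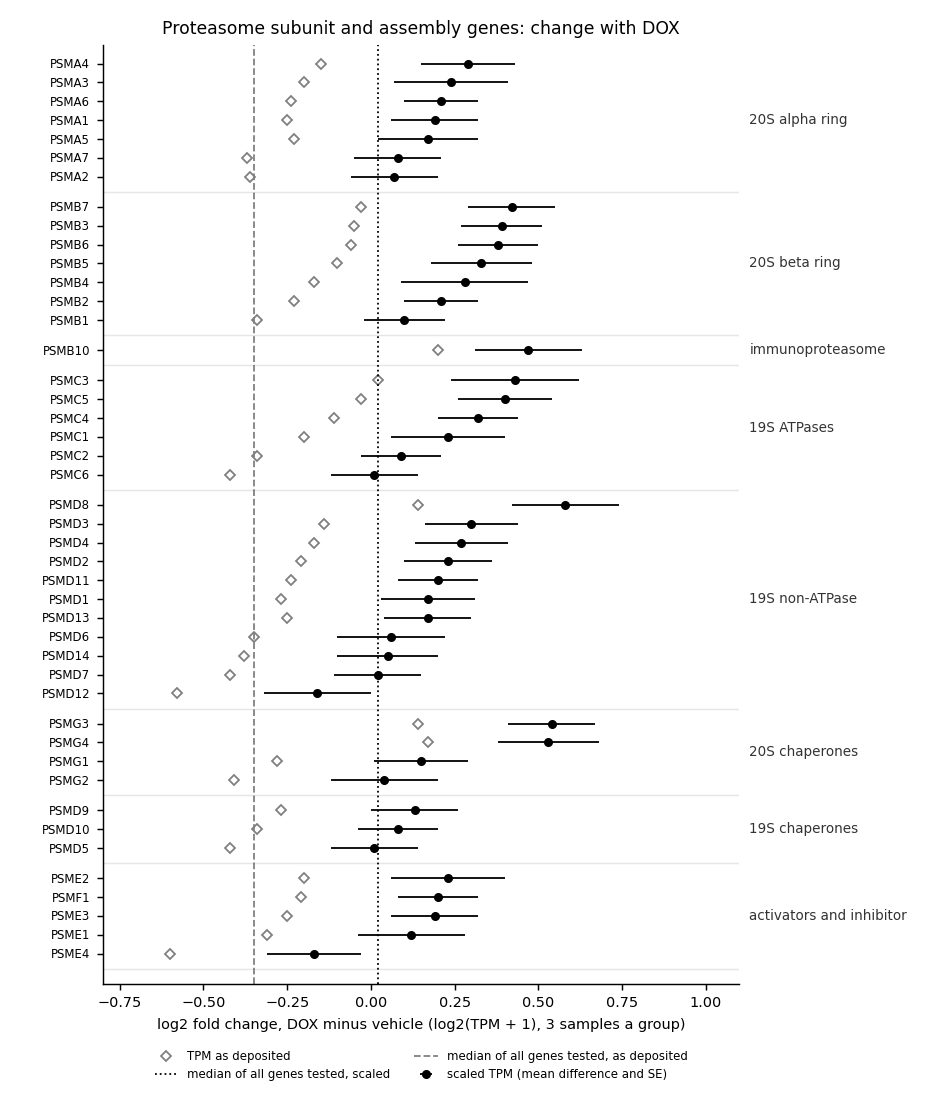
Log2 fold change (DOX minus vehicle, log2(TPM + 1), 3 samples a group) of the 44 tested members by subgroup, as filled circles with SE on the scaled TPM and open diamonds on the TPM as deposited, with the median of all genes tested as vertical lines. Filled circles lie above 0 for 42 members, while the diamonds lie above 0 for 5.

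Summed over the particle, core and cap differed between the groups by a like factor. The 14 alpha and beta ring genes summed to 1093, 1076 and 1086 scaled TPM in vehicle replicates 1, 2 and 3 and to 1281, 1319 and 1232 in DOX replicates 1, 2 and 3. The 17 cap genes summed to 649, 612 and 598 with vehicle and 719, 772 and 669 with DOX. The DOX samples lay above all vehicle samples in both sums, 1.18-fold and 1.16-fold by the means, while on the deposited TPM both sums overlapped (0.868-fold and 0.861-fold). The ratio of the cap sum to the core sum does not depend on the scaling between samples. It was 59.4%, 56.8% and 55.1% with vehicle and 56.1%, 58.5% and 54.3% with DOX, and the groups overlapped. The beta ring sum was 82.8% ± 11.8 (SD, n = 3) of the alpha ring sum with vehicle and 88.6% ± 14.3 with DOX, a difference smaller than the spread. In bulk RNA, a difference in every cell and a difference in some of the cells cannot be told apart.

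**Figure D2:**
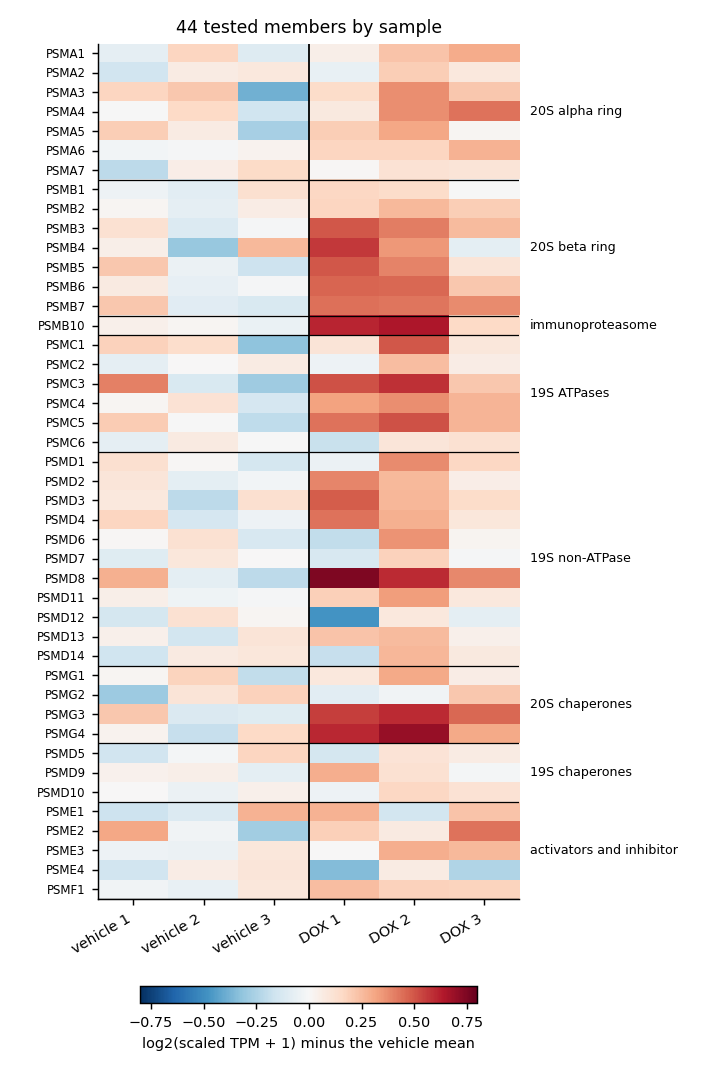
Each cell is log2(scaled TPM + 1) of 1 of the 44 tested members (rows, by subgroup) in 1 sample (columns) minus that member's mean over the 3 vehicle samples. The median deviation was 0.18, 0.27 and 0.13 in DOX replicates 1, 2 and 3, with 32, 42 and 38 of 44 members above their vehicle mean on this scale, while the deposited TPM put the log2 fold changes of 39 of 44 below 0.

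The catalytic subunits of the beta ring stood on the upper side of the members' range on the scaled and the deposited TPM. PSMB5 (chr14:23016543-23035230), the chymotrypsin-like subunit, was at 22.8, 18.9 and 17.2 scaled TPM with vehicle and 27.9, 26.0 and 21.0 with DOX. The groups overlapped, since DOX replicate 3 lay below vehicle replicate 1, and the log2 fold change was 0.33 ± 0.15 (SE). PSMB6 (chr17:4796144-4798502), the caspase-like subunit, was at 57.7, 52.3 and 54.4 with vehicle and 76.0, 75.8 and 63.8 with DOX. PSMB7 (chr9:124353465-124415444), the trypsin-like subunit, was at 92.6, 74.7 and 73.0 with vehicle and 108, 108 and 104 with DOX. For PSMB6 and PSMB7 the DOX samples all lay above the vehicle samples, with log2 fold changes of 0.38 ± 0.12 and 0.42 ± 0.13 and an adjusted p of 0.280 for both. The deposited TPM gave PSMB5, PSMB6 and PSMB7 log2 fold changes of -0.10, -0.06 and -0.03. With the GC and length correction described below they had 0.16, 0.18 and 0.29, where the members' median was 0.19.

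The other beta ring genes carry no active site. PSMB3 (chr17:38752741-38764225) was at 48.8, 41.5 and 44.4 with vehicle and 63.7, 59.8 and 53.5 with DOX, without overlap, and its log2 fold change was 0.39 ± 0.12 (adjusted p = 0.281). PSMB2 (0.21) also had groups that lay apart, and the groups of PSMB4 (0.28) and PSMB1 (0.10) overlapped. PSMB4 varied most within groups, at 147, 115 and 171 with vehicle and 211, 181 and 135 with DOX, and its log2 fold change ran from 0.13 (without vehicle replicate 2 or DOX replicate 1) to 0.46 (without DOX replicate 3). The beta ring's median log2 fold change was 0.33, with 3 of 7 genes higher at an unadjusted p below 0.05, against 8.12% of all genes. That median was -0.10 on the deposited TPM.

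The alpha ring genes had smaller differences than the beta ring genes on the scaled TPM. Their median log2 fold change was 0.19 on the scaled TPM and -0.24 on the deposited TPM. On both scales 0 of 7 had an unadjusted p below 0.05. With the GC and length correction described below, the order of the rings turned, with medians of 0.38 (alpha) and 0.19 (beta). At an unadjusted p below 0.05, 5 of 7 alpha and 3 of 7 beta ring genes were then higher, against 6.69% of all genes. PSMA4 was at 114, 128 and 102 scaled TPM with vehicle and 120, 148 and 154 with DOX, with a log2 fold change of 0.29 ± 0.14. PSMA3 was at 113, 116 and 76.1 with vehicle and 111, 129 and 116 with DOX, and vehicle replicate 3 was the lowest of the 6 samples. Its log2 fold change was 0.24 ± 0.17, and 0.05 without that sample. PSMA6 (0.21) was the alpha gene whose groups did not overlap, and PSMA1, PSMA5, PSMA7 and PSMA2 had 0.19, 0.17, 0.08 and 0.07.

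**Figure D3:**
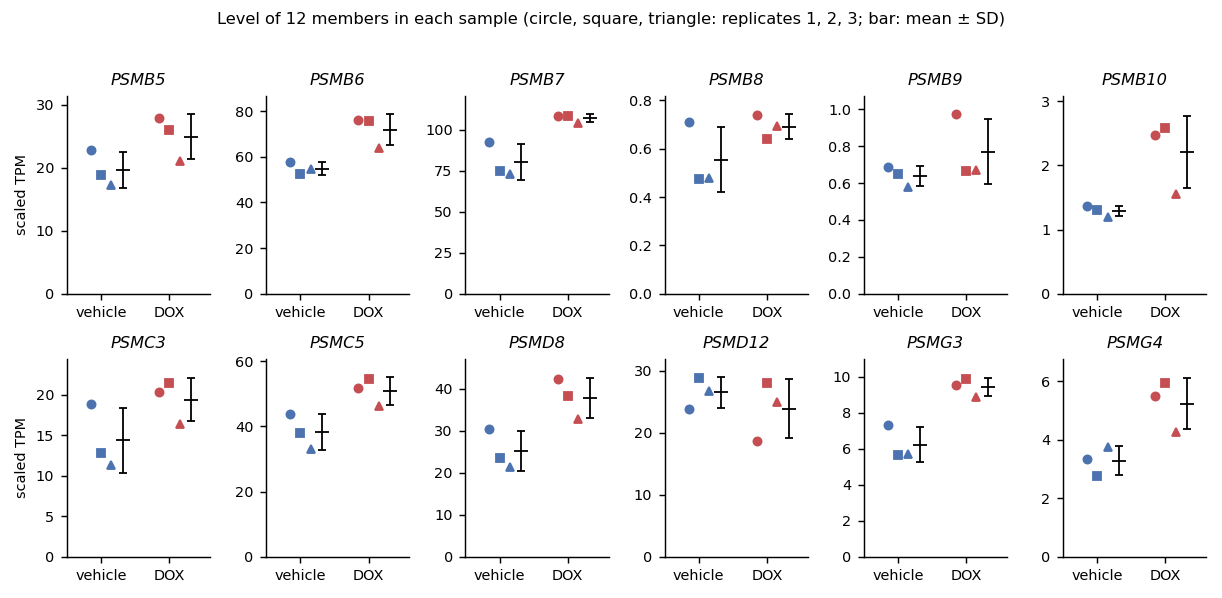
Scaled TPM of 12 members in each of the 3 vehicle (blue) and 3 DOX (red) samples, each axis starting at 0, with the mean ± SD as a bar. PSMB6, PSMB7, PSMB10, PSMC5, PSMD8, PSMG3 and PSMG4 have DOX samples that all lie above the vehicle samples on this scale, PSMD12 has a lower mean with DOX, and the others overlap, while on the deposited TPM these groups overlap for every one of them except PSMB9, which is lower with DOX.

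Of the immunoproteasome genes PSMB10 alone passed the expression minimum of 1. PSMB10 (chr16:67934506-67936864) was at 1.36, 1.31 and 1.20 scaled TPM with vehicle and 2.48, 2.59 and 1.56 with DOX. The groups lay apart, and the log2 fold change was 0.47 ± 0.16 with an adjusted p of 0.281 (0.20 on the deposited TPM). Its reads were few, from 7 in vehicle replicate 3 to 182 in DOX replicate 1. PSMB8 (chr6:32840717-32844679) was at 0.709, 0.475 and 0.479 with vehicle and 0.741, 0.639 and 0.693 with DOX. PSMB9 (chr6:32844136-32859851) was at 0.685, 0.651 and 0.578 with vehicle and 0.973, 0.666 and 0.671 with DOX. Both overlapped between the groups on this scale, while on the deposited TPM the DOX samples of PSMB9 (0.676, 0.670 and 0.624) lay below the vehicle samples (0.720, 0.722 and 0.816). These 2 genes lie beside each other on opposite strands with spans that overlap, and the strand setting of the authors' counting was not given in the sources used here, so reads of the overlap may be shared.

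PSMB8 and PSMB9 had a lower TPM than PSMB10 but more reads, though fewer than their constitutive counterparts. Recovered reads were 254, 198 and 54 for PSMB8 with vehicle and 1055, 259 and 259 with DOX, more than for PSMB10 in every sample. The ratio of reads to TPM gives the length by which the authors' values divide the reads, here set so that its median over genes equals the exonic length in GENCODE release 44. This length was 21052 bases for PSMB8, 6.05 times its exonic length of 3480, and 12261 bases for PSMB9, 3.67 times its 3338. For the other 44 members with reads the same quotient ran from 0.105 to 1.69 with a median of 0.611. It was above 3 for 70 of 77 genes (90.9%) from HLA-F to HLA-DPB1 (chr6:29722775-33089696), the region of the major histocompatibility complex in which both genes lie, with a median of 6.83, and for 151 of 12115 other genes (1.25%). The cause was not tested. TAP1 and TAP2, the peptide transporter genes next to PSMB8 and PSMB9, had 7.71 and 6.83. Levels of PSMB8 and PSMB9 against other members therefore depend on the length used, while a plain ratio of DOX to vehicle within the gene does not. The expression minimum and log2 fold changes on log2(scaled TPM + 1) do depend on it. On that scale without a minimum, PSMB8 and PSMB9 had 0.13 and 0.11, smaller than in the fit on reads given below.

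By deposited TPM PSMB8 was at 2.80% ± 0.300 (SD, n = 3) of PSMB5 with vehicle and 2.81% ± 0.442 with DOX. By reads per kilobase of GENCODE exons the same ratio was 14.9% ± 1.59 with vehicle and 14.9% ± 2.35 with DOX. PSMB9 was at 1.16% ± 0.0917 of PSMB6 by TPM and 7.04% ± 0.549 by reads per exonic kilobase with vehicle, and at 1.07% ± 0.202 and 6.46% ± 1.22 with DOX. PSMB10 was at 1.62% ± 0.146 of PSMB7 by TPM with vehicle and 2.07% ± 0.490 with DOX. The inducible subunits were thus a small share of their constitutive counterparts on either length, and all 3 ratios overlapped between the groups. In a fit on recovered reads that kept PSMB8 and PSMB9 (genes with a mean of at least 10 reads, chosen after the data were seen), their log2 fold changes were 0.32 ± 0.20 and 0.29 ± 0.23, with adjusted p = 0.428 and 0.535 (limma voom), 0.308 and 0.333 with the replicate block, and 0.547 and 0.640 on scaled TPM without a minimum.

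**Figure D4:**
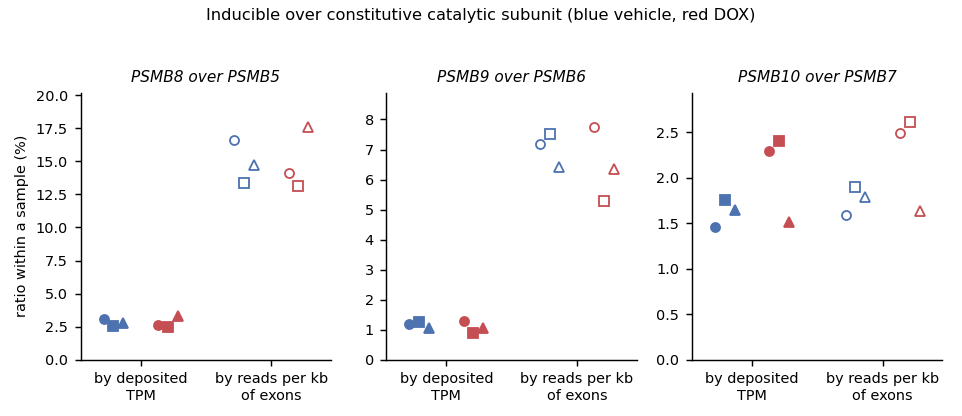
Ratio (%) of each interferon-inducible catalytic subunit to its constitutive counterpart within each vehicle (blue) and DOX (red) sample, by deposited TPM (filled) and by recovered reads per kilobase of exons (open). For PSMB8 over PSMB5 the vehicle mean is 2.80% by TPM and 14.9% by reads per exonic kilobase, and vehicle and DOX samples overlap in all 3 panels.

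PSMB11 and PSMA8, the core subunits of thymus and testis, were listed at 0 in all 6 samples. PSMB11 lies 6981 bases from PSMB5 on the other strand of chromosome 14.

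Among the ATPases of the 19S cap, PSMC3, PSMC5 and PSMC4 had larger log2 fold changes than PSMC1, PSMC2 and PSMC6 on the scaled TPM. PSMC3 was at 18.9, 12.8 and 11.4 scaled TPM with vehicle and 20.4, 21.5 and 16.4 with DOX. Vehicle replicate 1 lay within the DOX range, and the log2 fold change was 0.43 ± 0.19 (adjusted p = 0.300). PSMC5 was at 43.9, 38.0 and 33.0 with vehicle and 51.7, 54.5 and 46.1 with DOX, without overlap, with a log2 fold change of 0.40 ± 0.14. PSMC4 (0.32 ± 0.12) did not overlap either. PSMC1, PSMC2 and PSMC6 had 0.23, 0.09 and 0.01, and PSMC1 had 0.07 without vehicle replicate 3. The median of the 6 genes was 0.28 on the scaled TPM and -0.16 on the deposited TPM. This order of the ATPases turned with the GC and length correction, in which PSMC5 had 0.35, PSMC2 0.33, PSMC6 0.23, PSMC3 0.21, PSMC1 0.20 and PSMC4 0.15.

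PSMD8 (chr19:38374563-38383850), a subunit of the lid of the 19S cap, had the largest log2 fold change of the 44 members on log2(scaled TPM + 1). With the GC and length correction described below, its 0.39 was below PSMG4 (0.48), PSMA4 (0.43), PSMA3 (0.42) and PSMA6 (0.42), and in voom with the replicate block its 0.58 was below PSMB10 (0.80) and PSMG4 (0.74). PSMD8 was at 30.5, 23.5 and 21.4 scaled TPM with vehicle and 42.3, 38.2 and 32.8 with DOX, and no vehicle sample reached the lowest DOX sample. The size was 0.58 ± 0.16 on the log2 scale (1.49-fold on log2(value + 1)), and it ran from 0.47 to 0.72 as each sample was left out in turn. The adjusted p was 0.280, over a range of 0.0134 to 0.731 in the alternative fits. On the deposited TPM it was 32.1, 26.1 and 30.2 with vehicle and 29.4, 38.4 and 30.5 with DOX, which overlapped, with a log2 fold change of 0.14, below PSMB10 (0.20) and PSMG4 (0.17). As a share of the cap sum, which no scaling moves, PSMD8 was at 4.70%, 3.85% and 3.58% with vehicle and 5.89%, 4.94% and 4.90% with DOX, again without overlap. PSMD8 stands in a gene list that the study drew in part from these samples, so that list is not independent evidence of its direction.

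The other non-ATPase subunits were mixed. PSMD3, a lid subunit, was at 35.7, 28.8 and 36.7 scaled TPM with vehicle and 47.4, 40.5 and 37.2 with DOX, with a log2 fold change of 0.30 ± 0.14 and groups that lay apart by less than 1 TPM. The ubiquitin receptor gene PSMD4 had 0.27, the scaffold genes PSMD2 and PSMD1 0.23 and 0.17, and the lid genes PSMD11, PSMD13 and PSMD6 0.20, 0.17 and 0.06. PSMD1 had 0.06 without DOX replicate 2. PSMD14, the deubiquitinase of the lid, had 0.05, and its partner PSMD7 had 0.02. PSMD12 was at 23.8, 28.9 and 26.7 with vehicle and 18.7, 28.0 and 25.0 with DOX, and its log2 fold change of -0.16 ± 0.16 was no larger than its error. It was 0.00 without DOX replicate 1, the lowest sample. The median of the 11 genes was 0.17 on the scaled TPM and -0.25 on the deposited TPM.

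PSMG3 and PSMG4, chaperones that pair with each other to place alpha subunits, had larger log2 fold changes than the other chaperones on the scaled TPM. PSMG3 (chr7:1567332-1571005) was at 7.33, 5.63 and 5.71 scaled TPM with vehicle and 9.56, 9.86 and 8.86 with DOX, with a log2 fold change of 0.54 ± 0.13 and the lowest adjusted p of the members, 0.268. PSMG4 (chr6:3231403-3303373) was at 3.35, 2.76 and 3.76 with vehicle and 5.50, 5.94 and 4.26 with DOX, with a log2 fold change of 0.53 ± 0.15. In both genes the groups lay apart. Their deposited TPM gave log2 fold changes of 0.14 and 0.17 with overlapping groups. The other dimer, PSMG1 and PSMG2, had 0.15 and 0.04 on the scaled TPM, with overlap. The longest transcripts of PSMG3 and PSMG4 had a GC content of 59.4% and 52.6%, and those of PSMG1 and PSMG2 42.1% and 39.6%. With the GC and length correction PSMG3 and PSMG4 had 0.27 and 0.48, and PSMG1 and PSMG2 0.19 and 0.27, so that PSMG3 and PSMG2 had the same value. The difference between the dimers was not tested. Of the cap's chaperones, PSMD9 was at 7.97, 8.04 and 7.28 with vehicle and 9.69, 8.52 and 7.65 with DOX, and PSMD10 at 14.7, 14.2 and 15.1 against 14.3, 16.6 and 16.0, with overlap in both. PSMD9, PSMD10 and PSMD5 had log2 fold changes of 0.13, 0.08 and 0.01, and their median was -0.34 on the deposited TPM, close to the -0.35 of all genes.

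Apart from PSME4, the activators and the inhibitor lay near the middle of the members on the scaled and the deposited TPM. PSME2, whose protein forms the interferon-inducible activator ring together with that of PSME1, was at 28.6, 22.5 and 18.7 scaled TPM with vehicle and 26.3, 24.1 and 31.3 with DOX, with a log2 fold change of 0.23 ± 0.17 that ran from 0.09 (without vehicle replicate 3) to 0.39 (without vehicle replicate 1). PSME1, which lies 4394 bases away on chromosome 14, had 0.12. PSMF1, an inhibitor of the 20S core, was at 10.6, 10.3 and 11.5 with vehicle and 13.0, 12.4 and 12.4 with DOX, without overlap (0.20 ± 0.12). PSME3, the nuclear activator, had 0.19. PSME4, the large single-chain activator, had -0.17 ± 0.14 and was, with PSMD12, the other member below 0. The median of the 5 genes was 0.19 on the scaled TPM and -0.25 on the deposited TPM. With the GC and length correction described below it was 0.10, under the members' 0.19, and 2 of the 5 genes were below 0.

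The size of a member's difference on the scaled TPM went with the GC content of its longest GENCODE transcript. Across the 44 tested members Pearson's r between GC content and log2 fold change was 0.69 and Spearman's rho 0.67, and across 10788 genes they were 0.65 and 0.68. These points are genes of the same 6 libraries and not independent replicates. The 22 members at or above 47.9% GC had a median log2 fold change of 0.29 and the 22 below it 0.10, where all genes had 0.17 and -0.12. On either side of that value the members' median was above that of all genes on the scaled TPM, and on the deposited TPM it was -0.15 and -0.34, where all genes had -0.20 and -0.49.

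After a spline correction of each sample for GC content and exonic length, the members' median was 0.19, where all genes had 0.01, and 0 members were called (0 genes in all). At an unadjusted p below 0.05, 19 members were then higher and 0 lower, against 6.69% and 6.74% of all genes. Of the 10 members at that level before correction 6 were also at it after (PSMB3, PSMB7, PSMC5, PSMD8, PSMG3 and PSMG4), and PSMB6, PSMB10, PSMC3 and PSMC4 were not. The 13 that were at it after correction alone included 5 alpha ring genes (PSMA2 to PSMA6), PSMC2, PSMC6, PSMD1, PSMD6 and PSMD14, all with a GC content below 47.9%. The alpha ring's median moved from 0.19 to 0.38, the beta ring's from 0.33 to 0.19, and that of the ATPases from 0.28 to 0.22. The order of the subgroups thus depended on the correction. After it, the members' log2 fold changes ran against GC content (Pearson's r of -0.32, Spearman's rho of -0.37), where all genes had -0.00 and 0.01. The corrected order of members and subgroups is therefore not free of GC content either. The value of PSMA7, the alpha ring gene highest in GC, went from 0.08 to -0.14. The exonic length used here can be far from the length by which the authors' values divide the reads. For PSMG4, PSMA4, PSMA3 and PSMA6, which had the highest corrected values, that length was 0.109, 0.243, 0.345 and 0.231 times the exonic length. The median over the 44 members was 0.611. The effect of this on the corrected values was not tested.

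**Figure D5:**
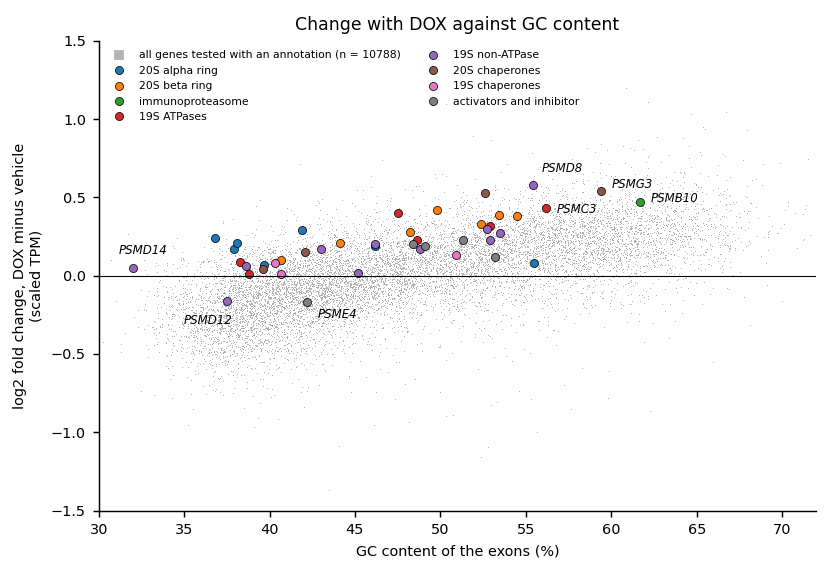
Log2 fold change on the scaled TPM (DOX minus vehicle) against GC content (%) for the 44 tested members, coloured by subgroup, over all 10788 genes tested with an annotation (grey), with genes outside the axes not drawn. GC content, labelled on the axis as that of the exons, is that of each gene's longest transcript. Log2 fold change goes with GC content (Pearson's r of 0.69 over members and 0.65 over all genes), on a scale on which 42 of 44 members are above 0, against 5 on the deposited TPM.

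A fit on recovered reads that pairs vehicle and DOX samples by replicate number made calls that the unpaired fit did not. In limma voom with the replicate number as a block, 6 members were called higher with DOX and 0 lower, against 5.35% of all genes higher and 8.62% lower. They were PSMB3, PSMB6, PSMB7, PSMC5, PSMD8 and PSMG3, with log2 fold changes of 0.39, 0.40, 0.40, 0.39, 0.58 and 0.57 and adjusted p-values from 0.0134 (PSMD8) to 0.0404 (PSMG3). Over the other fits the highest adjusted p of these genes ran from 0.731 (PSMD8 and PSMG3) to 0.947 (PSMB7). Without vehicle replicate 3, the shallowest sample, 2 members were called in that fit (PSMB4 and PSMD8), against 1.27% of all genes higher and 2.01% lower, and without DOX replicate 1, the deepest, 0 were, against 0.0432% and 0.0259%. Since the block was kept, leaving out 1 sample also took its partner's pair out of the comparison. Loss of that pair and depth of the sample cannot be told apart here. With the GC and length correction added, 0 of 44 were called (0.0278% of all genes higher, 0.102% lower), with 20 higher and 0 lower at an unadjusted p below 0.05, against 8.84% and 8.07% of all genes. Voom without the block called 0 members (0.00862% of all genes, lower), with 8 higher at an unadjusted p below 0.05, against 6.99%. The same block on scaled TPM called 0 members, with 15 higher at that level against 15.4% of all genes, or 20 higher and 0 lower against 7.93% and 7.41% with the GC and length correction. On the deposited TPM the block called PSMD12 and PSME4 lower, against 34.0% of all genes, with 6 members lower at an unadjusted p below 0.05, against 45.9%.

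Genes that act with the proteasome gave the following. Of 12 associated factors without a PSM symbol, 0 passed the test, with 3 higher and 1 lower at an unadjusted p below 0.05 (8.12% and 7.75% of all genes) and a median log2 fold change of 0.00. With the GC and length correction, which covered 11 of them, 5 were higher and 0 lower (6.69% and 6.74% of all genes). Their median was then 0.17, where all genes had 0.01 and the members 0.19. POMP, which matures the beta ring, was at 34.7, 35.1 and 26.6 scaled TPM with vehicle and 39.4, 41.6 and 41.6 with DOX (0.35 ± 0.14, adjusted p = 0.284). ADRM1, a ubiquitin receptor of the cap that is not named as a PSM gene, was at 22.2, 10.6 and 9.93 with vehicle and 28.0, 27.5 and 20.9 with DOX. Vehicle replicate 1 lay inside the DOX range, and the log2 fold change was 0.88 ± 0.26 (adjusted p = 0.280) at a GC content of 64.2% in its longest transcript. PAAF1, which binds the ATPases, had 0.29, and ZFAND5, a proteasome activator, had -0.30, with 44.6, 49.9 and 47.9 against 37.7, 34.2 and 43.4.

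Of 8 genes that control proteasome transcription 0 were at an unadjusted p below 0.05. NFE2L1 was at most at 21.6 scaled TPM with vehicle and at least at 21.9 with DOX, so that the groups just missed overlapping, with a log2 fold change of 0.23 ± 0.13 (adjusted p = 0.384). Members with the ARE core had a median log2 fold change of 0.14 (12 genes, from -0.17 for PSME4 to 0.39 for PSMB3) and those without it 0.20 (26 genes). Members with the ETS box had 0.08 (12 genes, from -0.17 for PSME4 to 0.58 for PSMD8) and those without it 0.21 (26 genes). The ranges overlapped for both motifs. The members without a matched promoter, among them PSMG3 (0.54), PSMB7 (0.42) and PSMB6 (0.38), are not in this comparison. Of 13 ubiquitin and shuttle genes 4 were higher and 0 lower at an unadjusted p below 0.05 (8.12% and 7.75% of all genes), with a median log2 fold change of 0.24 over the list. With the replicate block 8 were higher (15.4% of all genes), and with the GC and length correction 1 was (6.69%). Among the 4 were the ubiquitin gene UBB (0.39 ± 0.15) and the shuttle factor gene UBQLN4 (0.33 ± 0.14), which had 0.24 and 0.13 after the correction. Of the genes of interferon control, IRF1, NLRC5, TAP1 and TAP2 had 0.25, 0.07, 0.17 and 0.15 on the scaled TPM and -0.08, -0.19, -0.06 and -0.09 on the deposited TPM. The medians of the associated, transcription control and ubiquitin lists were -0.42, -0.26 and -0.20 on the deposited TPM, so the signs of the latter pair, too, depended on the scaling.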

How the data were processed

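RNA-seq libraries of 6 samples were made with a stranded mRNA kit. The labels name a column kit for RNA isolation and the paper Trizol. Per the labels and the paper, the authors aligned reads with STAR to GRCh38 and normalised with DESeq2; tool versions, the counting tool and its strand setting were not given in the sources used here. The authors deposited TPM per gene symbol. They also deposited DESeq2 output, whose fold changes and p-values were not used; the authors' signal column in it, the mean over samples of counts divided by size factors, served with TPM to recover reads per gene. Of the low values (under 100 reads) 96.5% came out whole within 0.05, against 10% by chance, with 89.1% in vehicle replicate 2.

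TPM was scaled by the median of ratios over genes above 0 in all samples. Genes with a mean of at least 1 were tested with limma (3.58.1, R 4.3.3) on log2(value + 1), with eBayes and a variance trend, without a block, and p-values were adjusted by Benjamini-Hochberg over all 11595 genes. Calls were made at an adjusted p below 0.05 with no minimum fold. Fold changes on this scale understate those of low genes. Alternatives were TPM as deposited, a pseudocount of 0.1, no filter and a mean of at least 5, each sample left out, voom on recovered reads, a correction for GC content and length (GENCODE release 44, splines with 5 degrees of freedom, 87.2% of symbols), no variance trend, and the replicate block. GC content was that of a gene's longest transcript, and exonic length that of all exons of its transcripts combined. Replicate numbers are shared between groups. Departures of like-numbered vehicle and DOX samples from their groups' means had positive correlations over genes (r = 0.56, 0.26 and 0.19, and 0.18, 0.04 and 0.15 after the correction). Unlike numbers ran from -0.43 to 0.22, and from -0.26 to 0.08 after it. Vehicle replicate 2 stood nearly as close to DOX replicate 3 (0.22) as to DOX replicate 2 (0.26), and closer after the correction (0.08 against 0.04). Departures within a group cancel out, so these correlations are not independent, and the pairing rests on them alone. The scripts were tested on simulated data. Tables used Python 3.11.15 and pandas 2.3.3.

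Every member is named. Values in every sample are given for the catalytic subunits and their inducible counterparts, for the 2 members of each subgroup with the largest log2 fold change and for members under the minimum; those of other members shown (PSMB4 and PSMD12), and of POMP and some related genes were added for context. Some genes that this rule names are not reported here. Members and lists were chosen with earlier results of these data known, and the ARE core was made stricter after a first count.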

Additional observations from a re-analysis of the deposited data

How the results depend on the processing

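On TPM as deposited, with and without the replicate block, the members' median log2 fold change was -0.23, and the subgroup medians were -0.24 (alpha ring), -0.10 (beta ring), -0.16 (ATPases), -0.25 (other 19S), -0.07 (20S chaperones), -0.34 (19S chaperones) and -0.25 (activators and inhibitor). That scaling leaves out the median-of-ratios step, which shifts every gene of a sample by the same factor. Called genes numbered 352 there (4 higher, 348 lower) and 4001 with the block, with 2 members (PSMD12 and PSME4, lower) and 6 related genes. Voom on recovered reads with the replicate block called 1620 genes, 6 members and 3 related genes, and 1523, 6 and 3 with a minimum of 10 reads. Without vehicle replicate 3 it called 380 genes, 2 members and 2 related genes, and without DOX replicate 1 it called 8, 0 and 1. With the GC and length correction it called 14 genes and 0 members. Voom without a block, voom with the 10-read minimum and a mean of at least 5 each called 1 gene and 0 members. Leaving out 1 sample at a time gave 0 to 16 called genes (16 without vehicle replicate 1, 7 without DOX replicate 2), 0 to 1 related genes and 0 members, with members' medians from 0.18 to 0.22. The replicate block on scaled TPM changed no call. The other settings tried kept 0 calls and a positive median for the members. The causes were not tested. Of 966 values of single members under alternatives, 869 kept their side of the threshold and their sign or moved by less than the spread. PSMB10, PSMB8 and PSMB9 are limited by depth, and values at 0 allow no comparison.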

Other observations

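Symbols that resemble those of the members but lie outside the rule gave values of the opposite sign in 2 cases, chosen after their values were seen. PSMD6-AS2, an antisense RNA gene at PSMD6, was at 4.31, 4.37 and 4.85 scaled TPM with vehicle and 1.36, 3.52 and 2.30 with DOX (log2 fold change -0.75 ± 0.21, limma adjusted p = 0.280), while PSMD6 itself had 0.06. PSMA3-AS1, antisense to PSMA3, was at 12.7, 14.6 and 14.3 with vehicle and 8.77, 11.3 and 10.2 with DOX (-0.43 ± 0.13, adjusted p = 0.280), while PSMA3 had 0.24. In both antisense genes the DOX samples all lay below the vehicle samples, which 9.15% of all genes tested did. In voom with the replicate block both had an adjusted p of 0.0213, over a range in the alternatives of 2.90e-06 to 0.731 for PSMD6-AS2 and 6.13e-04 to 0.731 for PSMA3-AS1. Without a known strand setting, reads of a gene and its antisense partner cannot be told apart. PSMB8-AS1 and PSMG3-AS1 were under the expression minimum, and PSMC3IP, which is no proteasome gene, had 0.26.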
